A study of Mus musculus with 16 samples.

Results

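The 10 genes described here are markers of hepatic stellate cells and genes of the extracellular matrix: Col1a1, Col1a2, Col3a1, Dcn, Dpt, Timp1, Lrat, Lum, Colec11 and Des. They were chosen by gene symbol, out of 16538 genes named on the array, after the symbols had been brought up to date by Entrez number. A named probe was found for 9 of them, 1 probe for each gene, and Colec11 had none in the annotation used here. A gene counted as measured when its detection p-value was under 0.01 on at least 4 of the 16 arrays, which 7 members met. Dcn, Lum, Lrat and Des were detected on all 16 arrays, Timp1 and Dpt on 8 each and Col1a1 on 5, while Col1a2 and Col3a1 were detected on 0 arrays.

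The samples were total RNA from frozen livers of female C57BL/6J mice, hybridised to single-colour Illumina bead arrays. One of 2 chips, chip A, compared 4 mice fed regular chow with 4 fed a high-fat diet (HFD). The other, chip B, compared 4 untreated HFD mice with 4 HFD mice that had been given nicotinamide mononucleotide, abbreviated NMN, from which cells make the coenzyme NAD+, by intraperitoneal injection for 7 days. The HFD arrays of both chips carry the same 4 animal numbers, so the 16 arrays came from 12 mice, and chow and NMN mice were each on 1 chip only. All groups were of 1 sex and 1 strain, with no transgene named, and the age of the mice, the length and composition of the diet and any vehicle injection in the untreated HFD mice are not given in the labels. The question of the design was how the liver transcriptome of HFD mice differs from that of chow mice, and how it differs after NMN.

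Hepatic stellate cells lie between the sinusoidal endothelium and the hepatocytes and store vitamin A as retinyl esters. When the liver is injured they can lose these stores, take on features of myofibroblasts and secrete fibrillar collagen, and in mice together with portal fibroblasts they are the main source of scar matrix. The members cover these roles: Lrat makes retinyl esters, Des is an intermediate filament protein used as a stellate cell marker in rodents, and Colec11 encodes a secreted collectin. Col1a1 and Col1a2 encode the chains of type I collagen and Col3a1 that of type III collagen. Dcn and Lum encode decorin and lumican, small leucine-rich proteoglycans that bind collagen fibrils, and Dpt encodes dermatopontin, a small matrix protein that binds decorin. Timp1 encodes an inhibitor of matrix metalloproteinases that is made by activated stellate cells and by other cells.

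The stretches upstream of 3 members are shown because Timp1 and Dpt had the largest differences between NMN and HFD arrays of the measured members, and Lrat was the only measured member with a lower mean there. Each is the 250 bases before the annotated start, from RefSeq on build GRCm38.p6, read 5′ to 3′ on the strand of the gene. Capitals mark matches, on either strand, to CCAAT or to the E-box letters CANNTG.
Timp1 (chrX:20869916-20870165, plus strand): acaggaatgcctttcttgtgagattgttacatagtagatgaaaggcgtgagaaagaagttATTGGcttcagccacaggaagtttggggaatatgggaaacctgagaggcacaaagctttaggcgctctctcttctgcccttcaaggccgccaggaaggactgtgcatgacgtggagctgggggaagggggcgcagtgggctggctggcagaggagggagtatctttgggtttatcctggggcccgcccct
Dpt (chr1:164796413-164796662, plus strand): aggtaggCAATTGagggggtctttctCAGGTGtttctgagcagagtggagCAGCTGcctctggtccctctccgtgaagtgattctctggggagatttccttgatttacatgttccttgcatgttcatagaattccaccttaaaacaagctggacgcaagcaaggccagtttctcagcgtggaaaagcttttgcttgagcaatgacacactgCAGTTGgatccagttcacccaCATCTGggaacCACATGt
Lrat (chr3:82903975-82904224, minus strand): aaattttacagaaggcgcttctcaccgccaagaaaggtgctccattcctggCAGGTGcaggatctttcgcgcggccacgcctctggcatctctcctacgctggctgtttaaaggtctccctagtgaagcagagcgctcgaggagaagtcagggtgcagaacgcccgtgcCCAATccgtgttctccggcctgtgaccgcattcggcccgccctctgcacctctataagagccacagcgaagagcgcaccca
The Timp1 window held 1 CCAAT match and no E-box, the Dpt window held 6 E-box matches and no CCAAT, and the Lrat window held 1 of each, with no overlap between matches. Among 27025 windows of the same length, 1 for each gene, 34.5% held CCAAT and 66.0% held CANNTG, so single matches were common. None of the 3 windows held the AP-1 letters TGANTCA or the TATA letters TATAAA, which 6.87% and 13.0% of all windows held. A match of letters is a description and not a site of binding. RefSeq windows were at hand for 7 of the 10 members, and not for Col1a1, Dcn and Lum.

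Each array had the same mean signal of 202 over its 25697 probes and between 9473 and 10569 detected probes, and precision is limited by the number of arrays, 4 in each group. Signals were background-corrected, quantile normalized and put on a log2 scale with the function neqc of limma, on which the undetected Col1a2 probe lay at 4.21 to 4.46 and the lowest detected probe of an array at 4.59 to 4.80. Expression values are given on this scale unless stated, and differences of dim genes are drawn toward 0 on it. Of 25 other stellate cell markers, 22 had a named probe and 10 were measured, among them Reln, Ngfr, Rgs5, Cygb and Ecm1, whereas Gfap, Hand2, Lhx2, Vipr1 and Tagln were detected on 0 arrays. The storage and filament markers Lrat and Des were thus detected in every liver, and the type I and type III collagen probes were at or near background in most. In whole liver RNA, more cells of a type and more RNA per cell cannot be told apart.

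Timp1 was undetected in chow livers, detected in 2 of 4 HFD mice and detected in all 4 NMN mice. Its log2 intensity was 4.53, 4.33, 4.25 and 4.28 in chow mice 1 to 4, all below detection. HFD mice 1 to 4 had 5.39, 5.07, 4.36 and 4.52 (chip A) and 5.34, 5.07, 4.24 and 4.37 (chip B). HFD mice 1 and 2 were detected on both chips and HFD mice 3 and 4 on neither, so the same mice were high on both. The NMN mice 1 to 4 stood at 5.71, 5.51, 6.64 and 5.21, with mouse 3 the highest of all 12 mice and mouse 4 between HFD mice 1 and 2. On the linear scale of the deposited signal this is 128.5 in NMN mouse 3 against 34.2 to 40.8 in the chow mice.

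Dpt had the same pattern of detection, at lower signal. Its values were 4.35, 4.46, 4.36 and 4.27 in chow mice, all undetected. HFD mice 1 to 4 had 4.78, 4.78, 4.38 and 4.46 (chip A) and 4.95, 4.83, 4.27 and 4.31 (chip B), where again mice 1 and 2 were detected and mice 3 and 4 were not. In NMN mice 1 to 4 Dpt stood at 4.81, 5.26, 5.75 and 4.80, all detected. NMN mouse 3 was again the highest, and the 2 lowest NMN mice lay at the level of the 2 detected HFD mice.

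Decorin and lumican were well above background on every array. Dcn stood at 8.40, 8.59, 8.52 and 8.02 in chow mice. On chip A the HFD mice gave 8.64, 9.23, 8.86 and 8.60, which put every HFD array above every chow array on that chip by a narrow margin. This held after normalization only, since on the linear deposited signal chow mouse 2 (405.7) lay above HFD mouse 4 (402.6). The HFD mice gave 8.77, 9.30, 8.79 and 8.75 on chip B, and the NMN mice 9.07, 9.52, 9.31 and 9.02, where HFD mouse 2 lay within the range of the NMN mice. Group means were 8.38 ± 0.25 in chow, 8.83 ± 0.29 and 8.90 ± 0.27 in HFD on chips A and B and 9.23 ± 0.23 in NMN (SD, n = 4 arrays each).

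Lum varied more within groups than between them. It stood at 6.39, 6.68, 6.39 and 5.80 in chow mice 1 to 4, and chip A gave 6.65, 6.71, 6.04 and 6.20 for the HFD mice. On chip B they gave 6.62, 6.71, 5.98 and 5.94, and the NMN mice 6.24, 6.94, 7.30 and 6.45. HFD mice 1 and 2 were the higher pair on both chips, as for Timp1 and Dpt, and all 4 groups overlapped.

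Of the collagen genes, Col1a1 alone was measured, and barely. It was undetected on all 4 chow arrays (4.47, 4.55, 4.55 and 4.32). On chip A it was detected in HFD mice 1 and 2 (4.85 and 5.05) and not in mice 3 and 4 (4.26 and 4.54). On chip B only HFD mouse 2 was detected (5.14), against 4.70, 4.34 and 4.71 in mice 1, 3 and 4. NMN mice 1 and 3 were detected (4.78 and 5.44) and mice 2 and 4 were not (4.71 and 4.65). The signals of Col1a2 and Col3a1 lay between 31.3 and 44.7 and between 32.1 and 45.3 on the linear scale, and these probes give no level for any group.

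The stellate cell markers proper stayed within narrow ranges, on a scale that draws differences of genes as dim as Lrat toward 0. Lrat stood at 4.98, 5.31, 5.38 and 5.14 in chow mice, at 5.06, 5.46, 5.26 and 5.08 in HFD mice on chip A and at 4.93, 5.27, 5.27 and 5.22 on chip B. The NMN mice gave 4.78, 5.09, 4.99 and 4.98, so NMN had the lowest mean (4.96 ± 0.13, against 5.17 ± 0.16 in HFD on chip B, SD, n = 4 arrays each), with overlap between all groups. Des stood between 5.41 and 5.68 in chow, between 5.46 and 5.59 in HFD on chip A, between 5.53 and 5.83 in HFD on chip B and between 5.59 and 5.84 in NMN. Its group means ranged from 5.54 ± 0.06 to 5.71 ± 0.11 (SD, n = 4 arrays each).

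**Figure D1:**
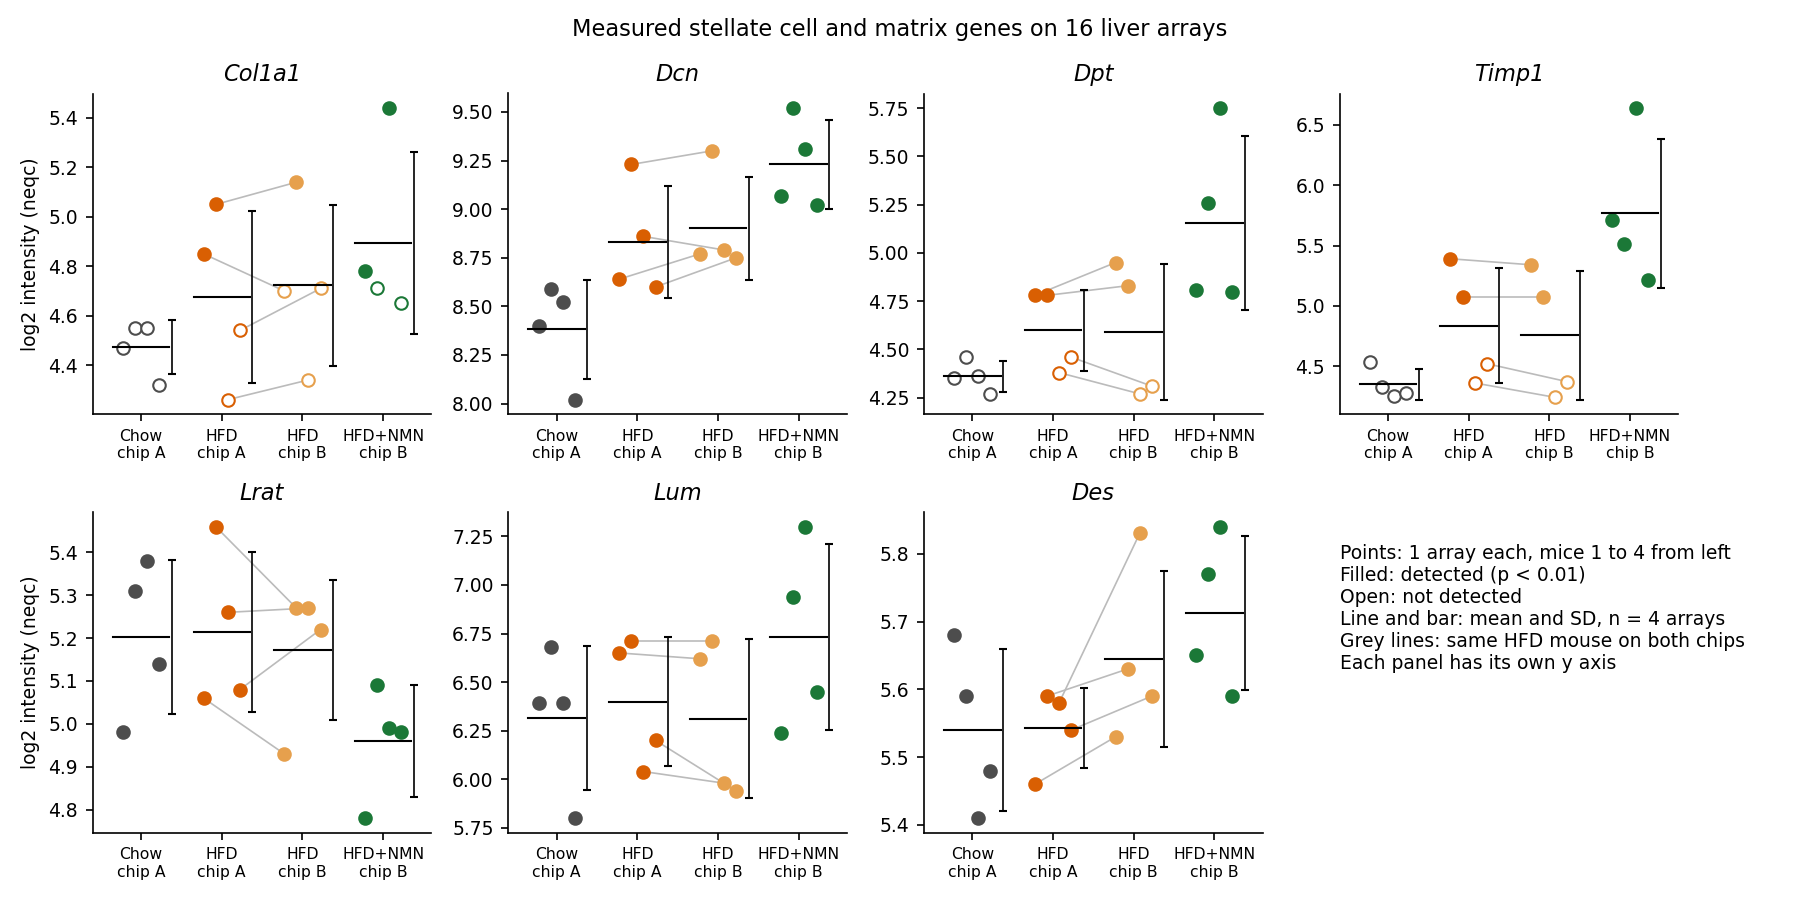
Normalized log2 intensity (y axis, a separate scale for each gene) of the 7 measured members on 16 arrays by group (x axis); filled points are detected arrays, open points undetected ones, and the horizontal line and bar give the mean and SD of 4 arrays. Grey lines join the 2 arrays of an HFD mouse; for Timp1 the chow arrays lie at 4.25 to 4.53 and the NMN arrays at 5.21 to 6.64, and HFD mice 1 and 2 lie above HFD mice 3 and 4 on both chips.

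The comparison of HFD with chow within chip A gave no call among the members. In the limma fit across 6559 genes, 0 of 7 measured members passed an adjusted p of 0.05, against 452 genes or 6.89% over all genes, and 1 of 7 had an unadjusted p under 0.05, against 25.3%. That gene was Dcn, 1.37-fold higher in HFD (log2 difference 0.45, SE 0.17, adjusted p = 0.113), and it was also the 1 member whose groups did not overlap, against 15.3% of all genes (exact two-sided permutation p = 0.0286, below which this design of 4 and 4 arrays cannot go). The separation of Dcn depended on the normalization, and on the log2 deposited signal its exact permutation p was 0.114. Timp1 differed by 0.49 (SE 0.30, adjusted p = 0.326 in limma), undetected on every chow array and detected on 2 of 4 HFD arrays. For a bound, each undetected array of the dimmer group was set at no less than the lowest detected probe on it. The brighter group kept its measured values, so a lower bound holds only where all its arrays were detected. For Timp1 this step gave 1.07-fold, which is no lower bound, since HFD mice 3 and 4 were undetected (4.36 and 4.52). Without HFD mouse 1 the difference of Timp1 was 0.305, and those of Dpt and Lum 0.18 and 0.00. Dpt differed by 0.24 (SE 0.20) and Col1a1 by 0.20 (SE 0.20), with no bound above 1. Without HFD mouse 2 the difference of Col1a1 was 0.08 and that of Lum -0.02, and without HFD mouse 3 that of Col1a1 was 0.34. For Lum the difference was 0.08 (SE 0.25), for Lrat 0.01 (SE 0.11) and for Des 0.00 (SE 0.08). The median over the 7 members was 0.20, beside -0.01 over all genes, with 6 positive and 1 negative difference, where 47.7% of all genes were positive. Timp1, Dpt and Col1a1 were detected on 0 chow arrays and were kept through the groups in which they are high. Nothing is therefore read from this median or these signs against all genes.

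The comparison of NMN with HFD within chip B also gave no call, among the members or over all genes. In limma 0 of 7 members passed after adjustment, against 0% of 6559 genes, and 2 of 7 had an unadjusted p under 0.05, against 9.8%. Timp1 was 2.02-fold higher in NMN (log2 difference 1.01, SE 0.30, adjusted p = 0.259 in limma, exact two-sided permutation p = 0.0571), with 3 of 4 NMN arrays above all HFD arrays. Since it was detected on 2 of 4 HFD arrays of chip B, the measured ratio includes arrays below detection, and with those at their floor it was at least 1.71-fold higher. Dpt was 1.48-fold higher (0.57, SE 0.20, adjusted p = 0.349 in limma, exact permutation p = 0.171), with 2 of 4 NMN arrays above all HFD arrays, and with its 2 undetected HFD arrays at their floor it was at least 1.24-fold higher. The differences were 0.42 (SE 0.25) for Lum, 0.33 (SE 0.17) for Dcn, 0.175 (SE 0.20) for Col1a1 and 0.07 (SE 0.08) for Des. Lrat was lower by 1.16-fold (-0.22, SE 0.11, adjusted p = 0.574 in limma). The groups overlapped for all 7 members, where 4.89% of all genes had groups that did not. Without NMN mouse 3 the difference of Timp1 was 0.72, that of Dpt 0.37, that of Lum 0.23 and that of Col1a1 -0.01, and without HFD mouse 3 or 2 that of Col1a1 was 0.05 or 0.31. The median over the members was 0.33, beside 0.00 over all genes.

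**Figure D2:**
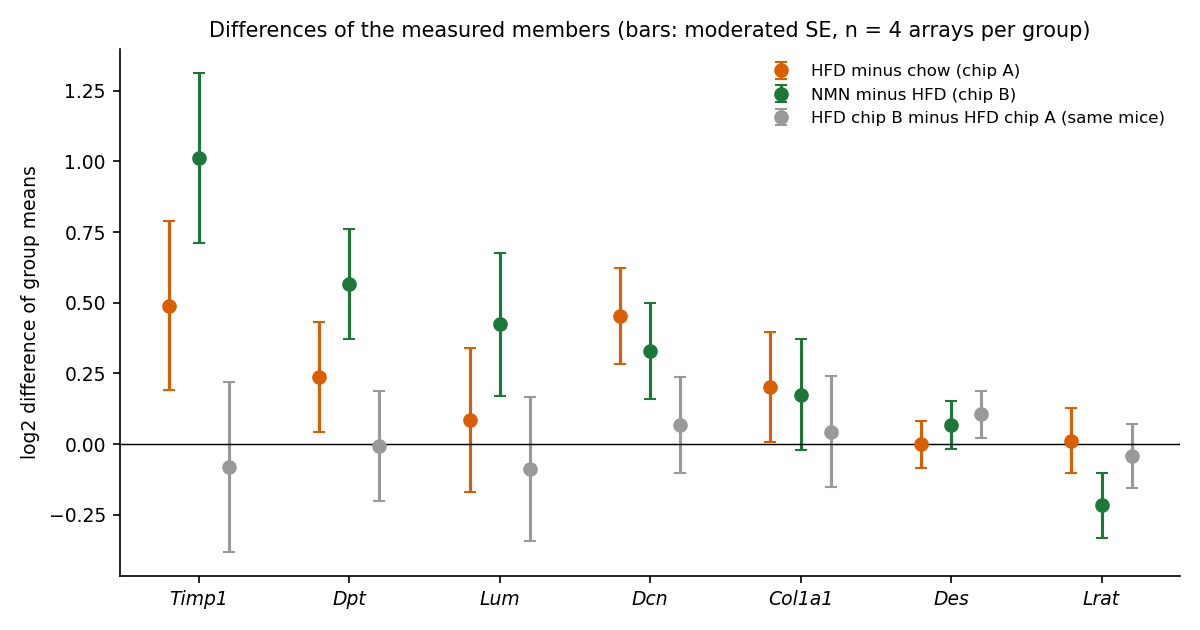
Difference of group means on the log2 scale (y axis) for the 7 measured members (x axis), with moderated SE from limma as bars and 4 arrays per group. Timp1 has the largest difference between NMN and HFD, 1.01, and the differences between the 2 arrays of the same HFD mice lie between -0.09 and 0.11.

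The 2 arrays of each HFD mouse show how closely a member repeats. Between chips the mean of the HFD mice moved by -0.09 to 0.11 for the 7 members, with 0 of 7 called (lowest adjusted p = 1 in limma, and 0 of 7 with an unadjusted p under 0.05, against 2.73%), where 0.0457% of all genes were called. With the animal as a random block, 4.86% of all genes and again 0 of 7 members were called, with the lowest adjusted p = 0.175 for Des. For Timp1 the SD between the 4 mice was 0.51 and the SD between repeat arrays 0.05, a ratio of 10.9. The ratio was 4.51 for Lum, 3.97 for Dcn, 3.38 for Col1a1 and 2.71 for Dpt, beside a median of 1.93 over all tested genes. It was 1.53 for Lrat and 1.29 for Des, whose mice differed little more than their repeat arrays. The SD of Timp1 between HFD mice was larger than that of 96.2% of the tested genes, and that of Des larger than that of 26.4%.

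NMN and chow mice were on different chips, and their levels were set against each other through the HFD mice that both chips held, as the sum of the diet and NMN differences. This comparison was added after the levels had been seen. Timp1 was 1.50 higher in NMN than in chow (SE 0.42, adjusted p = 0.0809 in limma), Dpt 0.80 (SE 0.28, adjusted p = 0.145) and Dcn 0.78 (SE 0.24, adjusted p = 0.106). In this fit 0 of 7 members were called, against 1.59% of all genes, and 3 of 7 had an unadjusted p under 0.05, against 17.6%. That fit takes the 2 arrays of an HFD mouse as independent. With the animal as a random block, at a correlation of 0.80 within animals, the same differences had an SE of 0.28 for Timp1 (adjusted p = 0.00353 in limma), 0.20 for Dpt (adjusted p = 0.0182) and 0.17 for Dcn (adjusted p = 0.00753). In the blocked fit these 3 of 7 members passed, all higher in NMN, where 5.73% of all genes were called higher. Timp1 and Dpt were detected on 0 chow arrays and entered both fits through the groups in which they are high. So nothing is read against the background from this count, nor from the 3 of 7 with an unadjusted p under 0.05. With 1 mouse left out of the blocked fit, the difference lay between 1.21 and 1.69 for Timp1, 0.605 and 0.92 for Dpt and 0.66 and 0.85 for Dcn. The call of Dpt was lost without chow mouse 4 (adjusted p = 0.0503 in limma) or NMN mouse 3 (adjusted p = 0.0507), and without HFD mice 2 and 3 together (adjusted p = 0.0509). Those of Timp1 and Dcn stayed under 0.05 in these fits, with the highest adjusted p = 0.0134 for Timp1 and 0.0256 for Dcn. The values of all 4 NMN mice lay above those of all 4 chow mice for Timp1, Dpt, Dcn and Col1a1, as they did for 10% of all genes, without regard to the chip. Col1a1, like Timp1 and Dpt, was detected on 0 chow arrays and was kept through the groups in which it is high. Nothing is therefore read from the number of these members against that share. Bounds were taken directly across the chips, with no step through the HFD mice. With the undetected chow arrays at their floor, Timp1 was at least 2.04-fold and Dpt at least 1.33-fold higher in NMN. For Col1a1 the same step gave 1.11-fold with 2 of 4 NMN arrays detected, which is no lower bound. Its undetected NMN mice 2 and 4 (4.71 and 4.65) lay below the mean chow floor of 4.74.

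Deviations of the 12 mice from their group means were compared for the 21 pairs of measured members, with the 2 arrays of an HFD mouse averaged, and p-values came from exact permutation of mice within groups (13824 assignments), adjusted over the 21 pairs. Dpt and Lum had a Pearson r of 0.89 (permutation p = 0.000868, adjusted p = 0.0182) and a Spearman rho of ranks within groups of 0.80 (permutation p = 0.014, adjusted p = 0.147). Col1a1 and Lum had r = 0.77 (permutation p = 0.00434, adjusted p = 0.0456) and rho = 0.73 (permutation p = 0.0297, adjusted p = 0.156). These 2 pairs passed by Pearson's r, and 0 of 21 passed by ranks. Leaving out the 2 mice farthest from the median of the first gene gave r = 0.89 for Dpt with Lum and 0.62 for Col1a1 with Lum. The next highest were Dpt with Timp1 (r = 0.87, permutation p = 0.0169, adjusted p = 0.0717; rho = 0.60, permutation p = 0.0893, adjusted p = 0.187; r = 0.71 without 2 mice) and Col1a1 with Timp1 (r = 0.85, permutation p = 0.0205, adjusted p = 0.0717; rho = 0.60, permutation p = 0.0893, adjusted p = 0.187; r = 0.75 without 2 mice). The highest rank correlation was that of Col1a1 with Dpt (rho = 0.87, permutation p = 0.00579, adjusted p = 0.122; r = 0.84, permutation p = 0.0114, adjusted p = 0.0717; r = 0.66 without 2 mice). Dcn had r = 0.73 with Lum (permutation p = 0.0189, adjusted p = 0.0717; rho = 0.60, permutation p = 0.0893, adjusted p = 0.187; r = 0.63 without 2 mice). With Dpt it had r = 0.50 (permutation p = 0.139, adjusted p = 0.324), with Col1a1 r = 0.48 (permutation p = 0.175, adjusted p = 0.368) and with Timp1 r = 0.23 (permutation p = 0.513, adjusted p = 0.634), with rho of 0.60, 0.60 and 0.13 (permutation p = 0.0893, 0.0893 and 0.779, adjusted p = 0.187, 0.187 and 0.818) and r without 2 mice of 0.49, 0.23 and 0.145. The values of a pair share their arrays, and those of Dpt, Timp1 and Col1a1 include arrays below detection.

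No pair that included Lrat or Des passed. The highest of these was Dcn with Lrat (r = 0.66, permutation p = 0.0482, adjusted p = 0.127; rho = 0.73, permutation p = 0.0297, adjusted p = 0.156; r = 0.62 without 2 mice). Lrat and Lum had r = 0.32 (permutation p = 0.335, adjusted p = 0.502; rho = 0.33, permutation p = 0.382, adjusted p = 0.535; r = 0.69 without 2 mice). Timp1 and Lrat had r = -0.22 (permutation p = 0.491, adjusted p = 0.634; rho = -0.40, permutation p = 0.285, adjusted p = 0.499; r = -0.11 without 2 mice). Des had r = 0.37 with Lum (permutation p = 0.288, adjusted p = 0.502; rho = 0.33, permutation p = 0.382, adjusted p = 0.535; r = 0.25 without 2 mice). NMN mouse 3 deviated by 0.87 in Timp1, 0.59 in Dpt, 0.57 in Lum and 0.55 in Col1a1, and by 0.08 in Dcn, 0.03 in Lrat and 0.13 in Des. HFD mouse 3 deviated by -0.50, -0.27, -0.35 and -0.40 in the same 4 genes, by -0.04 in Dcn, by 0.07 in Lrat and by 0.11 in Des.

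**Figure D3:**
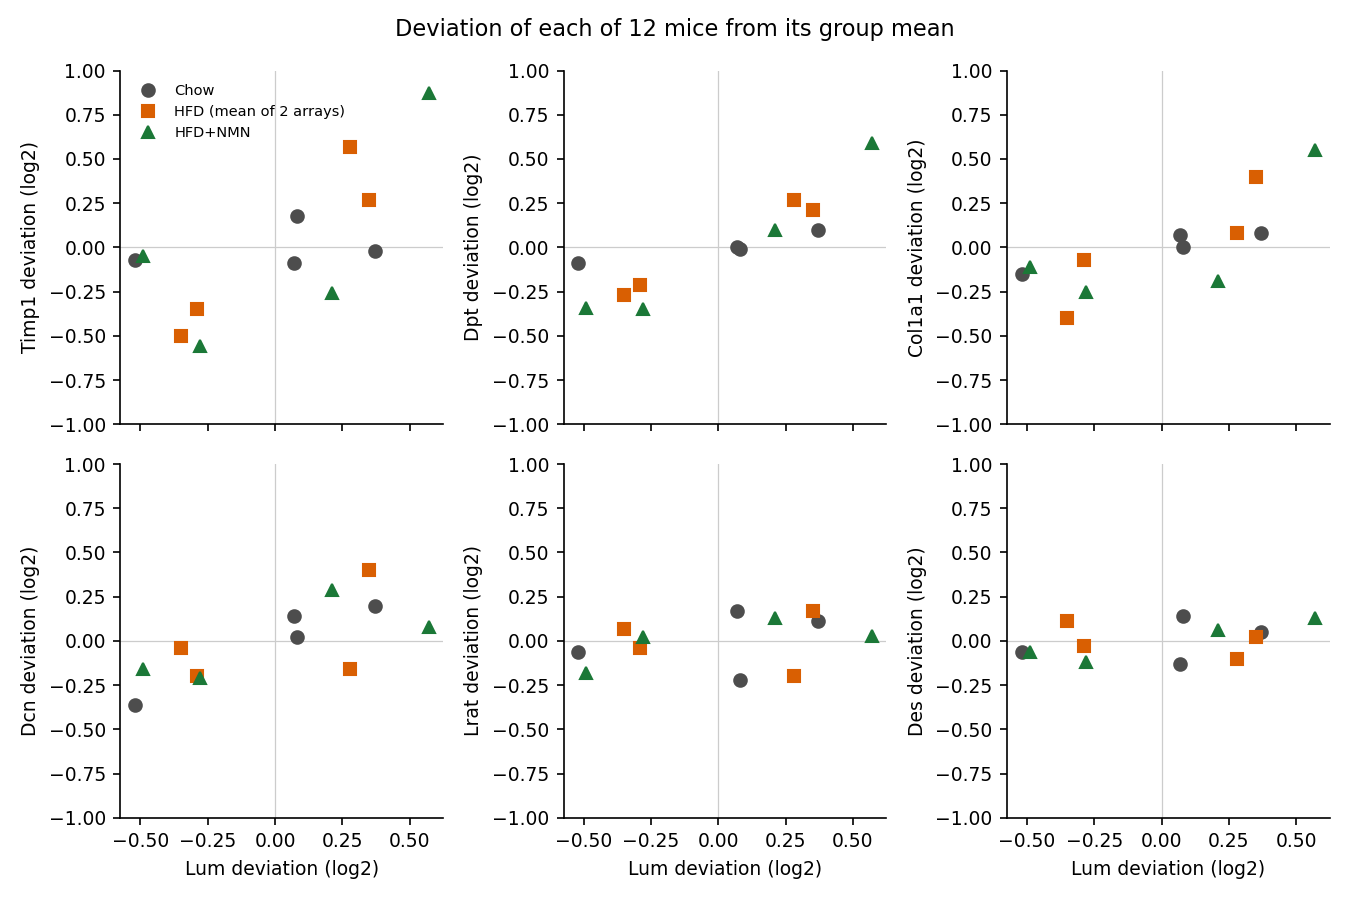
Deviation of each of 12 mice from its group mean in Lum (x axis, log2) against its deviation in 6 other members (y axis, log2), with a symbol for each group. Points of Dpt and Col1a1 lie along a rising diagonal (r = 0.89 and 0.77), and those of Des stay between -0.13 and 0.14 whatever the value of Lum.

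The tested genes whose deviations over the 12 mice were most like those of a member were found among 6558 others, as a description with no test. For Lum they were Bgn (r = 0.95), which encodes the proteoglycan biglycan, Col6a1 (r = 0.95), a chain of type VI collagen, and Rps26 (r = 0.94). For Dpt they were Rps26 (r = 0.96), Alcam (r = 0.95), a cell adhesion molecule, and Olfml3 (r = 0.93), a secreted glycoprotein. For Timp1 they were Nrg1 (r = 0.96), Cd63 (r = 0.94), a tetraspanin, and Ccdc120 (r = 0.93). For Col1a1 the closest were Agfg1 (r = 0.915), Pdlim7 and Ipo5 (both r = 0.89), for Dcn they were Taf9b (r = 0.90), Scarf2 (r = 0.89) and Dcp1b (r = 0.88), and for Lrat they were Rassf5 (r = 0.96), Msh6 (r = 0.94) and Cc2d1a (r = 0.93). For Des the closest were Mgst1 (r = 0.90), Fgfr1op2 (r = 0.88) and Snap29 (r = 0.845).

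Other matrix genes were read from the same fit. Of 7 measured further collagens, 0 passed for the diet, against 6.89% of all genes, and 0 for NMN, with a median diet difference of 0.25 beside -0.01 over all genes. The basement membrane collagen Col4a1 differed by 0.58 (SE 0.20, adjusted p = 0.0929 in limma) and Col6a1 by 0.54 (SE 0.185, adjusted p = 0.0893). Of 13 matrix glycoproteins and proteoglycans, 0 passed in either comparison, with a diet median of 0.21. Nid1, which links laminin to type IV collagen, differed by 0.48 (SE 0.16, adjusted p = 0.0819 in limma), and Sparc, a collagen-binding protein, by 0.41 (SE 0.14, adjusted p = 0.0869). The medians for NMN were 0.13 for the collagens and 0.01 for the glycoproteins, beside 0.00 over all genes.

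Among enzymes and signals, single genes passed for the diet, where 6.89% of all genes did. Of 10 measured genes of collagen folding and crosslinking 1 fell, Bmp1 (-0.33, SE 0.09, adjusted p = 0.0421 in limma), the protease that removes the C-terminal propeptide of procollagen. The call for Bmp1 was lost on omission of any single mouse of either group (largest adjusted p = 0.101 in limma). Of 10 matrix proteases and inhibitors 1 rose, Plau (0.46, SE 0.10, adjusted p = 0.0158 in limma), which encodes urokinase, and it passed with each mouse left out except chow mouse 4 (adjusted p = 0.0509). Of 16 genes of TGF-beta and PDGF signalling 0 passed, with a median of 0.19. Pdgfa, a growth factor for stellate cells, differed by 0.447 (SE 0.145, adjusted p = 0.0741 in limma) and Tgfb1, a driver of collagen synthesis, by 0.50 (SE 0.17, adjusted p = 0.0921). For NMN 0 genes of these 3 lists passed. The NMN difference with the smallest p in each list was -0.34 (SE 0.09, adjusted p = 0.217 in limma) for Bmp1, 1.13 (SE 0.31, adjusted p = 0.221) for Mmp12, a macrophage elastase, and 0.447 (SE 0.145, adjusted p = 0.318) for Pdgfa.

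Of 21 measured genes of retinoid storage and metabolism, 3 passed for the diet, against 6.89% of all genes: Lpl rose (1.99, SE 0.31, adjusted p = 0.0027 in limma) and Adh4 and Rxra fell (-0.405 and -0.483, SE 0.11 and 0.14, adjusted p = 0.0439 and 0.0494). Lpl encodes lipoprotein lipase, Adh4 an alcohol dehydrogenase that can oxidise retinol, and Rxra a nuclear receptor for retinoids. Lpl passed with each mouse left out, whereas Adh4 failed when chow mouse 1, 2 or 4 or HFD mouse 2, 3 or 4 was omitted, with values up to 0.135. Rxra failed on omission of chow mouse 1, 2 or 4 or of a single HFD mouse, with values up to 0.155. The list median was -0.05, and 0 of its genes passed for NMN. Set against chow through the HFD mice, Plau (0.72, SE 0.14, adjusted p = 0.0319 in limma), Pdgfa (0.89, SE 0.205, adjusted p = 0.0426) and Lpl (2.53, SE 0.44, adjusted p = 0.0202) were higher in NMN and Bmp1 was lower (-0.67, SE 0.13, adjusted p = 0.0319). The call of Lpl was lost without HFD mouse 3 (adjusted p = 0.0853), and that of Bmp1 on omission of a single HFD mouse, NMN mouse 1 or NMN mouse 3 (up to 0.102). Plau lost it without chow mouse 1 or 4, HFD mouse 2, 3 or 4, or NMN mouse 1 or 3 (up to 0.102), and Pdgfa without any 1 mouse other than chow mouse 3 and NMN mouse 4 (up to 0.119).

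**Figure D4:**
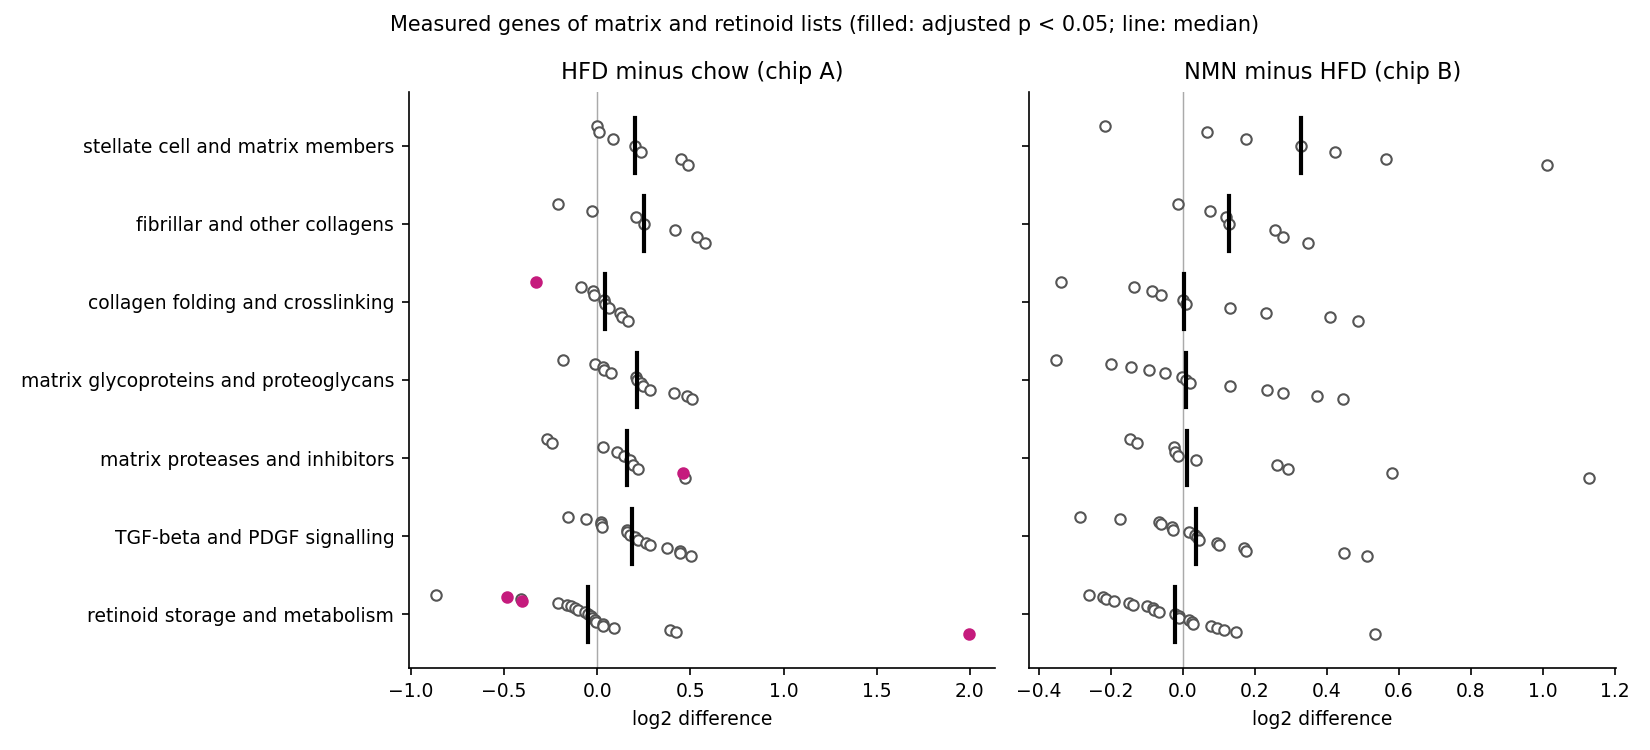
Differences on the log2 scale (x axis) of every measured gene in the members and in 6 lists of matrix and retinoid genes (y axis) for the diet on the left and NMN on the right; filled points have an adjusted p under 0.05, vertical lines are list medians, and the panels have different x scales. Filled points on the left are Bmp1, Plau, Lpl, Adh4 and Rxra, and there are none on the right.

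Markers of other cells that can carry matrix transcripts were read on the same arrays, as the sum of the normalized linear signals of the measured genes of a list. For portal fibroblasts 6 of 17 named genes were measured and 9 were detected on 0 arrays, among them Cd34, Clec3b, Pi16 and Msln. Their sum was 784 to 1137 in chow, 987 to 1586 in HFD on chip A, 927 to 1559 in HFD on chip B and 980 to 1387 in NMN. Set against chow, their mean log2 difference on chip B was 0.33, 0.20, 0.10 and -0.01 for HFD mice 1 to 4 and -0.06, 0.11, 0.41 and 0.20 for NMN mice 1 to 4. NMN mouse 3 had the highest of these means, and HFD mice 1 and 2 were the higher pair, as they were for Timp1, Dpt and Lum. Mouse 3 also had the highest sum of the NMN mice, and HFD mice 1 and 2 had the higher sums on chip B. On chip A the pair with the higher sums was HFD mice 2 and 3, with mouse 3 above mouse 1. The smallest p for the diet was that of Gas6 (0.64, SE 0.20, adjusted p = 0.0641 in limma). For mesothelial cells, which cover the liver capsule, 4 of 9 named genes were measured, Wt1, Upk3b, Krt18 and Podxl. The markers Msln, Upk1b, Krt19, Lrrn4 and Gpm6a were detected on 0 arrays. That sum was 358 to 374 in chow, 320 to 499 and 365 to 557 in HFD on chips A and B, and 405 to 696 in NMN, and the mean log2 difference of its genes from chow was 0.28, 0.41, 0.36 and 0.29 in NMN mice 1 to 4 and 0.45, 0.18, 0.05 and 0.10 in HFD mice 1 to 4 on chip B. In the HFD mice this mean was highest in mice 1 and 2, as Timp1, Dpt and Lum were. Among the NMN mice it was highest in mouse 2, and those genes were highest in mouse 3. The adipocyte genes Adipoq, Plin1, Retn, Lep and Fabp4 were detected on 0 arrays, and 2 of 7 named genes of that list, Cidec and Car3, were measured, with a sum of 4178 to 5928 in chow, 4061 to 7246 and 4092 to 7638 in HFD and 4977 to 6093 in NMN. Set against chow, their mean log2 difference on chip B was 0.85, -0.05, 0.39 and 0.58 for HFD mice 1 to 4 and 1.15, 0.45, 1.27 and 0.16 for NMN mice 1 to 4, so that NMN mouse 3 had the highest mean and the lowest sum of the NMN mice.

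Macrophage and neutrophil markers varied widely between mice. For 9 of 10 named macrophage genes, the mean log2 difference from chow was 0.52, 1.59, 1.13 and 0.44 on the chip A arrays of HFD mice 1 to 4. It was 1.72, 0.56, 0.95 and 0.29 for NMN mice 1 to 4. Its sum was 1560 to 3001 in chow, 3092 to 6328 in HFD on chip A, 3071 to 6210 in HFD on chip B and 2822 to 8675 in NMN, and Cd5l was detected on 0 arrays. For the diet 2 of the 9 genes rose, against 6.89% of all genes in either direction: Clec4f (0.98, SE 0.28, adjusted p = 0.0465 in limma), a lectin of Kupffer cells, and Lyz2 (1.65, SE 0.47, adjusted p = 0.0465), a lysozyme of myeloid cells. Both lie close to the threshold. Calls of single genes in this and the other cell type lists were not followed under other settings or with mice left out. For 9 of 11 named neutrophil genes the same measure was 0.97, 2.52, 2.20 and 0.03 on the chip A arrays of HFD mice 1 to 4 and 0.91, 0.59, 0.50 and 0.26 in NMN mice, with sums of 332 to 1026 in chow, 457 to 6922 and 422 to 6421 in HFD and 940 to 3410 in NMN, and Csf3r and Cxcr2 detected on 0 arrays. Of these 9, 0 passed for the diet, with the smallest p for S100a8 (2.68, SE 0.96, adjusted p = 0.0979 in limma), part of the calprotectin complex. HFD mouse 2 was high in both means and in Timp1, Dpt and Dcn, whereas HFD mouse 3 was high in both means and below detection for Timp1 and Dpt. In NMN mouse 3, the highest in Timp1, Dpt, Lum and Col1a1, the mean of 4 of 9 named T and B lymphocyte genes was 1.29 above chow, beside -0.06, -0.19 and 0.06 in NMN mice 1, 2 and 4. The lymphocyte sum was 87 to 165 in chow, 96 to 142 and 91 to 130 in HFD and 103 to 295 in NMN, with Cd8a, Cd4 and Ms4a1 detected on 0 arrays.

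Of 10 named smooth muscle genes 2 were measured and 7 were detected on 0 arrays, among them Myh11 and Cnn1, with a sum of 325 to 516 in chow, 305 to 379 and 292 to 359 in HFD and 326 to 514 in NMN, where mouse 3 was the highest. Sums of 11 of 14 endothelial genes were 2801 to 3926 in chow, 3506 to 3942 and 3511 to 3928 in HFD and 2740 to 3479 in NMN, and NMN mouse 3 was the lowest; Kdr and Oit3 were detected on 0 arrays. For the diet 2 of the 11 endothelial genes rose, against 6.89% of all genes in either direction. They were Lyve1 (0.78, SE 0.18, adjusted p = 0.0199 in limma) and Stab2 (0.50, SE 0.12, adjusted p = 0.0201), both receptors of liver sinusoidal endothelium. Of the 11 differences 9 were positive and 2 negative, those of Stab1 (-0.11) and Dnase1l3 (-0.05). Sums of 10 of 12 named hepatocyte genes were 106777 to 108923 in chow, 102108 to 103918 and 101106 to 104564 in HFD and 99503 to 104721 in NMN, with NMN mouse 3 again the lowest and Fgb and Tat detected on 0 arrays. Of these 10 hepatocyte genes 1 rose and 2 fell for the diet, against 6.89% of all genes in either direction. Hpx, which encodes hemopexin, rose (0.30, SE 0.07, adjusted p = 0.0248 in limma), and the urea cycle gene Cps1 (-0.68, SE 0.19, adjusted p = 0.0418) and Ahsg (-0.22, SE 0.06, adjusted p = 0.0442), which encodes fetuin-A, fell. The diet gave 0 calls in the lists for portal fibroblasts, mesothelial cells, adipocytes, smooth muscle and lymphocytes, and NMN gave 0 in each of the cell type lists. Of 4 named cholangiocyte genes 0 were measured. The sum of the 10 other stellate cell markers was 2851 to 4074 in chow, 3540 to 4654 and 3411 to 4540 in HFD and 3960 to 4183 in NMN; 0 of the 10 passed for the diet or for NMN, and the smallest p for the diet was that of the filament gene Vim (0.76, SE 0.23, adjusted p = 0.0579 in limma). Set against chow, the mean log2 difference of these other stellate cell markers was 0.09, 0.33, 0.05 and 0.04 for HFD mice 1 to 4 on chip A. It was 0.16, 0.12, 0.24 and 0.12 for NMN mice 1 to 4. HFD mouse 2 and NMN mouse 3 were thus the highest of their groups. The part of any of these cell types in the values of the members was not tested. HFD mice 2 and 3 had the highest neutrophil means, and HFD mice 1 and 2 the highest neutrophil sums. Leaving out HFD mice 2 and 3 was an alternative chosen after seeing the data. The differences for the diet were then 0.61 for Timp1 and 0.24 for Dcn, and those for NMN were 0.91 for Timp1 and 0.53 for Dpt.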

How the data were processed

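The authors deposited a table of single-colour bead intensity values with a detection p-value for each probe on 16 arrays of 2 chips. Every array has the same mean intensity, so the arrays had been scaled before deposit; neither labels nor headers name the software. The deposited series matrix holds a z score per probe, of which 72.9% lay on a straight line of the log2 signal within a tolerance of 1e-04, with its scaling otherwise unknown. The z scores were used only as an alternative.

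From the deposited intensity values, log2 values were made with neqc (detection p-values, offset 16) in limma 3.58.1 under R 4.3.3. Of 25697 probes, 16850 had 1 gene symbol (16839 brought up to date by Entrez number). Probes with a detection p under 0.01 on at least 4 arrays were kept (10550, of which 3914 had no symbol), and the probe with the highest mean stood for a gene, which gave 6559 genes. One fit over all 16 arrays and 4 groups gave moderated differences, with Benjamini-Hochberg adjustment over all genes at 0.05. The steps were tested on simulated data. Single genes had exact permutation tests.

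Samples were grouped by their labels. The members and gene lists were chosen with earlier results of these data known. All members are named. In each other list of matrix or retinoid genes the text draws on up to 4 genes past the threshold, or 2 with the smallest p, with values in the cell type lists mainly for genes past it, and for each member on the 3 genes most like it. The 2 arrays of an HFD animal correlated across genes at 0.765 to 0.892 in their deviations from the group means, and the column headings give them the same animal number. Chow, HFD and NMN mice with the same replicate number were not paired, since the correlation was -0.007 to 0.237 for chow with HFD and -0.275 to 0.328 for HFD with NMN. The limma p-values of the main fit rest on the spread within groups, pooled over all arrays. That fit takes the 2 arrays of an HFD animal as independent, also where they are compared with each other. Its p-values therefore do not measure the spread between animals alone. The fits with the animal as a random block allow for the repeat arrays. The exact permutation tests for diet and NMN compare different animals within a chip.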

Additional observations from a re-analysis of the deposited data

Results flagged for a closer look

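In 28 sets of 4 arrays (7 measured members in 4 groups), the highest or lowest array was compared with its nearest neighbour, and the gap was divided by the range of the group. A ratio above Dixon's critical value at the 95% level marks an array that stands apart, which chance gives in about 1 of 20 groups, and 3 sets passed. Col1a1 in NMN mouse 3 was 5.44, with the nearest NMN array at 4.78 (ratio 0.832). Dcn in HFD mouse 2 on chip B was 9.30, with the nearest at 8.79 (ratio 0.922), and the same mouse was also the highest on chip A at 9.23. Lrat in HFD mouse 1 on chip B was 4.93, with the nearest at 5.22 (ratio 0.861), and the same mouse was the lowest on chip A at 5.06.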

How the results depend on the processing

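Of the values of single members under other settings, 494 kept their direction and their side of the threshold, 24 changed sign and 9 became calls. For the diet, 452 genes were called, against 204 on the log2 deposited signal, 259 with no filter on detection, 780 with array weights, 853 with the replicate number as a block, 99 without HFD mice 2 and 3 and 175 to 564 with 1 mouse left out (175 without HFD mouse 3, 564 without HFD mouse 4). Members called for the diet were 1 instead of 0, Dcn, on the deposited z scores (adjusted p = 0.0335 in limma) and with the replicate block (adjusted p = 0.00539); over the diet alternatives and left-out mice its adjusted p ranged from 0.00539 to 0.521. For NMN, 10 genes instead of 0 were called with the replicate block, 1 without HFD mice 2 and 3 and 0 to 4 with 1 mouse left out; members called stayed at 0. For the repeat arrays, 3 genes became 1 on the deposited signal, 319 with the animal as a random block, 0 without HFD mice 2 and 3 and 0 to 1 with 1 mouse left out. For NMN against chow, 104 genes became 36 on the deposited signal, 13 with no filter, 61 on z scores, 745 with the animal block, 326 with the replicate block, 197 with array weights, 1 without HFD mice 2 and 3 and 0 to 265 with 1 mouse left out (0 without HFD mouse 3, 265 without NMN mouse 4); members called became 1 on z scores (Dcn), 3 with the animal block, 2 with the replicate block (Dcn and Timp1) and 0 to 1 with 1 mouse left out (Timp1, adjusted p = 0.0389 in limma without NMN mouse 4). With the animal block, 2 to 3 members were called with 1 mouse left out and 2 without HFD mice 2 and 3.

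These are the sign changes. For the diet, Des was 0.02 on the deposited signal, 0.013 in z units and 0.014 with array weights, and -0.046 to 0.047 with 1 mouse left out; Lum was -0.019 with array weights and -0.089 to 0.207 with 1 mouse left out; Lrat was -0.135 without HFD mice 2 and 3 and -0.07 to 0.07 with 1 mouse left out. For NMN, Col1a1, 0.175 with all mice, was -0.008 to 0.314 with 1 mouse left out. Between repeat arrays, Dcn was -0.053 on the deposited signal and -0.021 in z units; Dpt was 0.002 with an offset of 50, 0.002 in z units, 0.01 without HFD mice 2 and 3 and -0.066 to 0.04 with 1 mouse left out; Lrat was 0.009 without HFD mice 2 and 3 and -0.104 to 0.008 with 1 mouse left out. The cause was not tested. The diet calls of Adh4, Bmp1, Plau and Rxra were lost on the deposited signal (adjusted p = 0.0854, 0.164, 0.0732 and 0.0716 in limma) and without HFD mice 2 and 3 (0.279, 0.13, 0.0856 and 0.384). Those of Adh4, Bmp1 and Rxra were lost with no filter (0.0949, 0.0724 and 0.115) and with only the 8 arrays of the chip (0.085, 0.0585 and 0.0963), that of Bmp1 on z scores (0.435) and that of Rxra with an offset of 50 (0.0502). That of Lpl passed under every setting run. The settings without HFD mice 2 and 3, and all for NMN against chow, were chosen after seeing the data. Timp1, Dpt, Col1a1 and Lrat lie near background, where the offset draws differences toward 0. The NMN difference of Lrat was -0.217 in the main fit and -0.108 with an offset of 50.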
